A study of Mus musculus with 4 samples.

Results

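The genes described here are 10 protein-coding genes that are imprinted in the mouse and have known roles in the hypothalamus: Nap1l5, Snrpn, Nnat, Impact, Ndn, Peg3, Dlk1, Peg10, Magel2 and Asb4. They were chosen by name, and all 10 were found by Ensembl identifier among the 25044 entries of the tables and passed the filter of a mean of 0.1 FPKM, which 17630 entries passed. Transcript levels came from RNA sequencing of tissue dissected from the parasubthalamic nucleus, a small cell group of the posterior lateral hypothalamus, in naive C57BL/6 mice, an inbred strain. The 4 libraries, replicates 1 to 4, are titled as controls and form a single group with no stressed, treated or mutant animal. The dissected region is named for the whole study, while the label of each sample says only brain. Age, sex and pooling are not stated, nor whether each library is a different mouse, so p-values here reflect the spread among these libraries, which may be technical. Values were read as FPKM, fragments scaled by transcript length and library size, so that levels of different genes can be compared per length.

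An imprinted gene is transcribed mainly from the allele of a single parent, because methylation set in the germ line silences the other copy. In the mouse Asb4 is expressed from the maternal allele and the other members from the paternal allele. Imprinted genes are abundant in the hypothalamus, where they are known for effects on feeding, growth, body temperature and maternal care, and loss of the paternal Prader-Willi region, which holds Snrpn, Ndn and Magel2, causes a human syndrome with hypothalamic signs. The mice were of an inbred strain and the files hold levels only, so they do not show which parental allele was transcribed.

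The promoter is where the imprint of several of these genes sits, so promoter windows, from 250 bases before to 50 after each annotated start, were examined in RefSeq sequence of build GRCm38.p6. Of the 10 members, 8 had a window, and 12 windows were found because Snrpn and Asb4 have several starts. Nnat and Nap1l5 each held 17 CpG pairs per window, Peg3 held 13, Ndn 11, Magel2 10 and Dlk1 9, against a median of 7 in all 32851 mouse windows. Among all windows these counts stood only between percentile 54.2, for Dlk1, and 68.6, for Nnat and Nap1l5. The windows of Asb4 held 6 and 8 CpG pairs, and those of Snrpn between 2 and 7. The motif CGCATGCG, the palindromic core of the sequence bound by the transcription factor NRF1, was found in the windows of 3 members, Snrpn, Ndn and Nnat, and in 1.87% of all mouse windows. In Snrpn all 4 windows held it, but 3 of these windows are near-copies of each other around the motif and are not separate matches. The motif TGACGTCA, the palindromic cAMP response element, was found in Peg3 and in 1.79% of all windows. Both motifs read the same on either strand, do not overlap each other in these windows, and were chosen after the sequences had been seen. A match describes the letters and is not evidence of binding. The 4 windows below carry these motifs, which stand in capitals in the otherwise lower-case sequence.
Ndn, chr7:62348027-62348326, plus strand: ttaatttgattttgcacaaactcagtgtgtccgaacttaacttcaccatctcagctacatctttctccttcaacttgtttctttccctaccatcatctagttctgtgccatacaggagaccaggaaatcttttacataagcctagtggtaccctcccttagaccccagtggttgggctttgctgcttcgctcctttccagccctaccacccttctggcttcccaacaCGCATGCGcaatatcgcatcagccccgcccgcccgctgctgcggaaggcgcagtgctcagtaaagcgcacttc
Snrpn, chr7:60005150-60005449, minus strand: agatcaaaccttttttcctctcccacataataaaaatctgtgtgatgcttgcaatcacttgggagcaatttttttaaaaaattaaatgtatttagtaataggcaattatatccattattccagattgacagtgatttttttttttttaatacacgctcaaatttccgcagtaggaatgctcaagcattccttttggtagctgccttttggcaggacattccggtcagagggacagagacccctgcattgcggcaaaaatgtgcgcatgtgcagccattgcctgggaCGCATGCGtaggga
Nnat, chr2:157559828-157560127, plus strand: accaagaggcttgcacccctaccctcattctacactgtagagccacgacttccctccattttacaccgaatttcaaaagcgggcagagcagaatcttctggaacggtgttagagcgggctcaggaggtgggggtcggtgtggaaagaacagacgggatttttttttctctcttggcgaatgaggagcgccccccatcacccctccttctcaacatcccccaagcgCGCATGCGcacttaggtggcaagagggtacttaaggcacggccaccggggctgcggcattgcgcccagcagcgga
Peg3, chr7:6730370-6730669, minus strand: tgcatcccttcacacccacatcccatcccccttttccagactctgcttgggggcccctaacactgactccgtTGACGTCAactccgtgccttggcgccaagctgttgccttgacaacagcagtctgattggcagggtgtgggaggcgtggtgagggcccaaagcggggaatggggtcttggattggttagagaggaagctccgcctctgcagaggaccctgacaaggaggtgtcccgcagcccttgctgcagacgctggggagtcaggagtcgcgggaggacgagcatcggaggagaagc

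The levels of the members spanned a wide range, from some of the most abundant transcripts of the tissue to genes near the middle of the distribution. Nap1l5, a paternally expressed retrogene of the nucleosome assembly protein family, was highest, at 871, 696, 614 and 764 FPKM in replicates 1 to 4, and ranked 37 by mean FPKM among the 17630 genes. Snrpn, which encodes SmN, the form of a spliceosomal core protein found in neurons, followed at 504, 483, 504 and 493 FPKM and ranked 66. Nnat, which encodes neuronatin, a small membrane protein of the endoplasmic reticulum, was at 388, 415, 184 and 306 FPKM. Snrpn kept within a narrow band, whereas Nnat was low in replicate 3.

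Impact, an inhibitor of the amino acid sensing kinase GCN2, lay at 180.2, 156, 124 and 162 FPKM. Ndn, which encodes necdin, a MAGE protein of postmitotic neurons, lay at 153, 136, 102 and 138 FPKM. Peg3, which encodes a zinc finger protein linked to maternal behaviour in mice, was at 68.5, 71.3, 53.7 and 70.3 FPKM. In these 3 genes replicate 3 lay below every other library.

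Dlk1, a transmembrane protein related to Notch ligands, was at 61.2, 92.0, 45.4 and 61.3 FPKM. Peg10, a protein derived from the gag and pol genes of a retrotransposon, was at 26.0, 40.3, 13.2 and 26.3 FPKM. Both were highest in replicate 2 and lowest in replicate 3. Magel2, a MAGE protein that promotes ubiquitination in endosomal recycling, was at 6.40, 7.41, 3.25 and 5.25 FPKM. Asb4, the substrate receptor of a cullin 5 ubiquitin ligase, was at 5.40, 10.6, 2.21 and 5.17 FPKM. Asb4 had the widest spread of the 10, with a ratio of 4.79 between its highest and lowest library, and Snrpn the narrowest, with a ratio of 1.04.

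**Figure D1:**
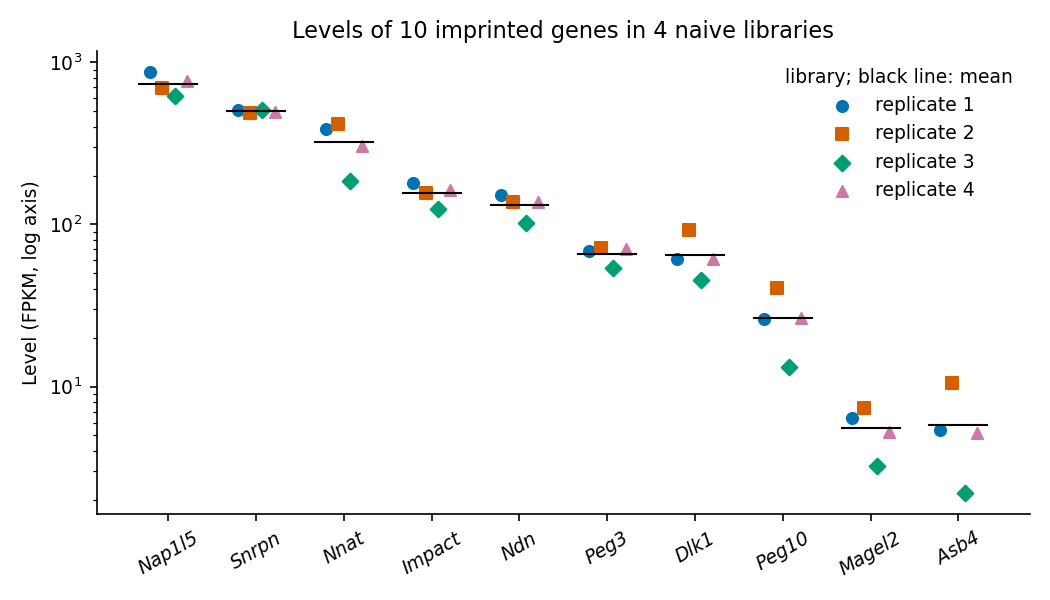
Level of each imprinted gene (FPKM, log axis) in the 4 libraries, one symbol per library, with black lines for means. Replicate 3 is the lowest symbol for every gene but Snrpn, and replicate 2 stands highest for Asb4 (10.6 FPKM) and Peg10 (40.3 FPKM).

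As mean ± SD over the 4 libraries (n = 4), the levels were 736 ± 109 FPKM for Nap1l5, 496 ± 9.91 for Snrpn, 323 ± 104 for Nnat, 156 ± 23.5 for Impact and 132 ± 21.6 for Ndn. The lower members were at 65.9 ± 8.26 FPKM for Peg3, 65.0 ± 19.5 for Dlk1, 26.4 ± 11.1 for Peg10, 5.84 ± 3.48 for Asb4 and 5.58 ± 1.78 for Magel2. By mean log2 level their percentiles among the genes tested ran from 50.9 for Asb4 to 99.8 for Nap1l5, with a median of 95.9. The order of levels was tested with limma on within-library differences of log2(FPKM + 0.1), with the higher gene of a pair minus the lower. Of the 45 pairs, 42 differed at an adjusted p under 0.05, against a high background. The share of all genes that differed from a member was 99.9% for Nap1l5 and Snrpn, 98.7% for Nnat, 98.8% for Impact, 98.3% for Ndn, 97.0% for Peg3 and 93.4% for Dlk1. It was 78.1% for Peg10, 77.4% for Magel2 and 61.6% for Asb4, so the count of pairs is near what other genes gave. The order was taken by mean log2 level, in which Magel2 stands above Asb4. Of the 9 neighbouring pairs in it, 6 differed.

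The 3 neighbouring pairs that did not pass were Impact over Ndn, Peg3 over Dlk1 and Magel2 over Asb4. Impact exceeded Ndn by 0.24 on the log2 scale (SE 0.09, limma adjusted p = 0.0578) and in 4 of 4 libraries, although their ranges overlapped. Over the alternatives its limma adjusted p lay between 0.0403, on values multiplied by transcript length, and 0.215, without replicate 4, and it passed also with a pseudocount of 0.01 (0.0449). Peg3 exceeded Dlk1 by 0.06 (SE 0.14, limma adjusted p = 0.696) in 3 of 4 libraries, and Magel2 exceeded Asb4 by 0.07 (SE 0.26, limma adjusted p = 0.805) in 3 of 4. Both of these order relations turned when replicate 3 was left out, to -0.0019 and -0.0816. On values multiplied by transcript length, Peg3 exceeded Dlk1 by 0.96 and passed (limma adjusted p = 0.00112). Of the 6 pairs that passed, Nap1l5 exceeded Snrpn by 0.56 (SE 0.13, limma adjusted p = 0.00798) and Snrpn exceeded Nnat by 0.69 (SE 0.23, limma adjusted p = 0.0319), each in 4 of 4 libraries. Without replicate 4 the limma adjusted p of Nap1l5 over Snrpn was 0.0532, and over all its alternatives it ran between 0.00417 and 0.0532. That of Snrpn over Nnat was 0.0541 without replicate 1 and 0.0864 without replicate 4, over a range that began at 0.00325. The others were Nnat over Impact by 1.00 (SE 0.24, limma adjusted p = 0.0103), Ndn over Peg3 by 1.00 (SE 0.11, limma adjusted p = 0.000435), Dlk1 over Peg10 by 1.35 (SE 0.20, limma adjusted p = 0.00185) and Peg10 over Magel2 by 2.18 (SE 0.24, limma adjusted p = 0.00104), each in 4 of 4 libraries. On values multiplied by transcript length, which are no longer levels per length, Nnat over Impact and Ndn over Peg3 turned, to -0.38 and -0.24.

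Over all 4 libraries, the spread separated Snrpn from the other 9 members. For each member the SD of log2 level was ranked among the 200 genes nearest in mean level that are on neither of the imprinted lists used here. Asb4 and Peg10 stood at percentile 99.5 of such genes, Nnat and Dlk1 at 99, Magel2 at 98.5, Ndn at 94.5, Impact at 93.5, Nap1l5 at 92.5 and Peg3 at 90.5. Snrpn stood at 6.5, so that it varied less than most of the 200 genes nearest to it in level. Those genes averaged between 225 and 973 FPKM, and those for Nap1l5 between 230 and 2038 FPKM. For these most abundant members the likeness of level is therefore loose. The SD of log2 level was 0.91 for Asb4, where genes of like level had a median of 0.14, and 0.53 for Nnat, where they had 0.07. In Snrpn it was 0.03, where genes of like level had 0.08. These percentiles describe the members and carry no test.

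In the limma variance test, which compares each gene with the trend of variance over level in all 17630 genes, 0 of the 10 members were called at an adjusted p under 0.05, and 0.0% of all genes were. Their adjusted p ranged from 0.288 for Nnat to 0.997 for Snrpn. At an unadjusted p under 0.05 there were 8 of 10 members, against 1031 of 17630 genes or 5.85%, and Peg3 and Snrpn were the members above it. The 8 became 5 without replicate 3, 6 without the filter and 1 with a prior that was neither trended over level nor robust. Without replicate 3 Peg3 moved to percentile 10 of genes of like level, Ndn to 68.5, Impact to 79 and Magel2 to 86, whereas Dlk1 (99.5), Peg10 (98.5), Asb4 (98.5), Nnat (96.5) and Nap1l5 (93.5) stayed high. Snrpn moved to 24.5, above Peg3, so Snrpn was not set apart from all other members without replicate 3.

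**Figure D2:**
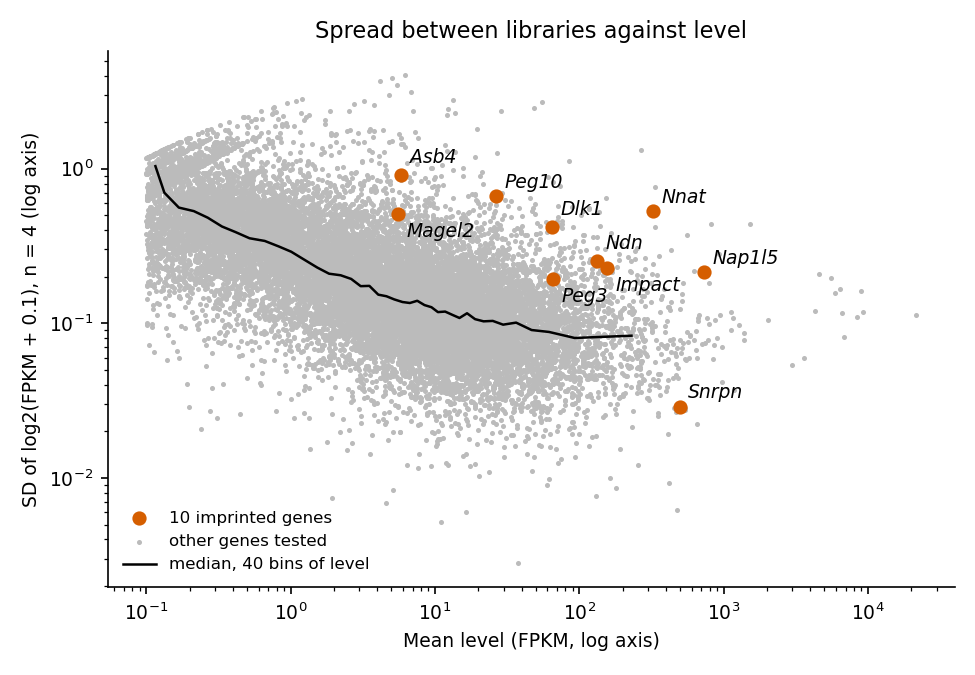
SD of log2(FPKM + 0.1) over the 4 libraries against mean level (FPKM), both axes logarithmic, for the 10 imprinted genes in orange and the other genes tested in grey, with the median in 40 bins of level as a line. Of the imprinted genes, 9 lie above the line, Asb4 highest at 0.91, and Snrpn lies below it at 0.03.

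Replicate 3 was the low library for most of these genes. It held the lowest value of 9 of the 10 members, while 35.9% of all genes tested had their lowest value there. The exception, Snrpn, was lowest in replicate 2, as were 16.8% of all genes. Replicate 3 was more than 1.2-fold below every other library in 8 members, all but Snrpn and Nap1l5, against 10.9% of all genes. The ratio of replicate 3 to the mean of the other libraries was 0.313 for Asb4, 0.426 for Peg10, 0.498 for Nnat, 0.512 for Magel2 and 0.636 for Dlk1. It was 0.714 for Ndn, 0.745 for Impact, 0.766 for Peg3, 0.790 for Nap1l5 and 1.02 for Snrpn, and the median over all genes tested was 0.960. Replicate 2 held the highest value of 6 members, against 29.1% of all genes, and these were Nnat, Peg3, Dlk1, Peg10, Magel2 and Asb4. Replicate 1 held the highest value of the other 4, Nap1l5, Snrpn, Impact and Ndn, against 26.9% of all genes. Scaling the libraries to the same total, with or without mitochondrial genes, left 9 members lowest in replicate 3.

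The libraries also differed in genes that mark brain regions. Markers of the medial hypothalamus summed to 17.6 FPKM in replicate 3, against 29.4, 201 and 45.5 FPKM in replicates 1, 2 and 4, and 9 of these 10 markers were lowest in replicate 3. The exception was Avp, the vasopressin precursor, at 4.10 FPKM in replicate 3 and at 2.17, 90.5 and 18.3 FPKM in the others. Otp, a transcription factor of neuroendocrine hypothalamic neurons, was at 1.61 FPKM in replicate 3 and at 4.16, 8.15 and 4.20 FPKM in the others, and Kiss1 was listed at 0 in replicate 3. Markers of the lateral hypothalamus, led by the melanin-concentrating hormone precursor Pmch, summed to 190 FPKM in replicate 3, against 477 to 794 FPKM in the others. Of these 6 markers 4 were lowest in replicate 3, namely Pmch, the orexin precursor Hcrt, Gal and Nts, while Cartpt was lowest in replicate 1, and Lhx9 was highest in replicate 3, at 2.73 FPKM against 0.589 to 1.89 FPKM. Thalamic markers summed to 352 FPKM in replicate 3, against 18.9 to 50.7 FPKM, with none at 0 in any library. Prkcd, a protein kinase C gene of thalamic relay neurons, led them at 172 FPKM in replicate 3, against 3.72 to 13.4 FPKM. Genes linked to the parasubthalamic nucleus, Tac1, Adcyap1, Slc17a6, Calb2, Cck and Barhl1, were all present, and summed to 438 FPKM in replicate 3, against 400.4 to 527 FPKM. They did not move together, since Tac1, Adcyap1 and Calb2 were lowest in replicate 3, at ratios to the others of 0.551, 0.590 and 0.713, and Cck was highest there, at 2.03. The median deviation of the 6 in replicate 3 was -0.36. Midbrain dopamine markers, led by Aldh1a1, summed to 957 FPKM in replicate 2, against 497 to 524 FPKM. General neuronal markers, led by Snap25, summed to between 1980 and 2189 FPKM and astrocyte markers, led by Aldoc, to between 900.1 and 967 FPKM. Oligodendrocyte markers, led by the myelin gene Mbp, summed to 8196 FPKM in replicate 3, against 5649 to 7625 FPKM. Of the choroid plexus and ependymal markers, Ttr was at 49.7 FPKM in replicate 4, against 0.587 to 1.99 FPKM, while the other 5 lay between 0.461 and 6.45 FPKM in every library. Spinal and hindbrain markers, led by Slc6a5, summed to 19.7 FPKM in replicate 1, against 0.0745 to 0.361 FPKM. Cortical and hippocampal markers summed to 31.8 FPKM in replicate 3, against 4.18, 6.60 and 19.3 FPKM, of which Slc17a7 held 30.6 FPKM in replicate 3, while none of the other 5 was highest there. Pituitary markers, led by Cga, summed to 13.96 FPKM in replicate 2, against 0.499 to 3.11 FPKM. The part of these differences in the levels of the imprinted genes was not tested, and in bulk tissue fewer cells of a type and less RNA per cell cannot be told apart.

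**Figure D3:**
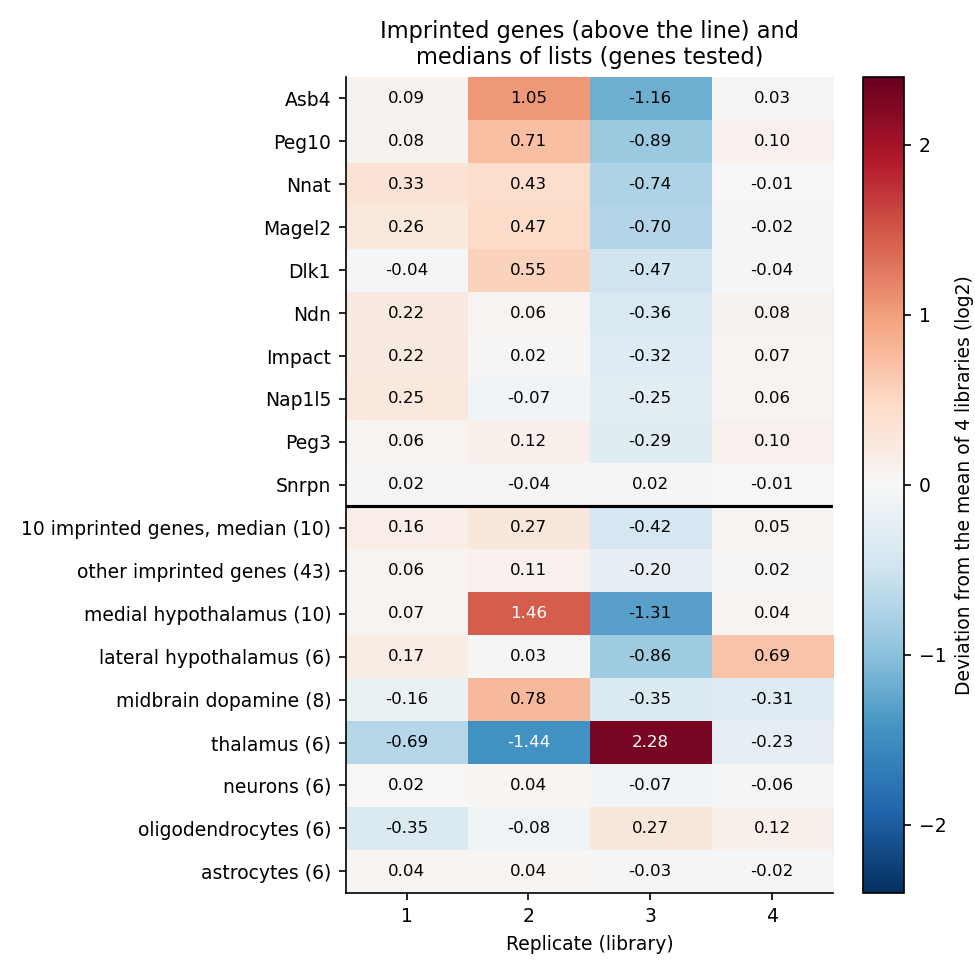
Deviation of each library from the mean of the 4 on the log2 scale, for the 10 imprinted genes above the line and as medians of lists below it, with the number of genes tested in brackets. Replicate 3 is blue for every imprinted gene but Snrpn and reaches -1.16 for Asb4, while the thalamus list there is at 2.28 and the medial hypothalamus list at -1.31.

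Genes with the most similar profile over the 4 libraries were sought for the 3 members with the largest SD, by the root mean square distance between centred log2 levels among 13043 other genes that averaged at least 1 FPKM. With 4 libraries many genes share any given profile, so the names below are a description. The nearest gene to Asb4 was Otp, at a distance of 0.05 log2 units, followed by Sytl4, a synaptotagmin-like protein of secretory granules, at 0.10 and the collagen gene Col23a1 at 0.12. Peg10 itself ranked 10 in likeness to Asb4. The nearest annotated genes to Peg10 were Ecel1, a neuronal endopeptidase, and Ppp1r17, a phosphatase inhibitor, both at 0.08, after a locus without a gene name. Those nearest to Nnat were Npb, the neuropeptide B precursor, at 0.01, Ifi35, an interferon-induced gene, at 0.03 and Magel2, another member, at 0.05. Snrpn ranked 8728 in likeness to Asb4 and 7885 in likeness to Nnat.

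Of the 20 neighbours in imprinted regions that were listed, 17 were matched and 15 tested. Nnat was above all 15, where it was above 98.4% and below 0.323% of all genes. Nap1l5, Snrpn, Impact and Ndn were also above all 15, where each was above at least 96.6% of all genes. Peg3 was above 13 and below 1, where it was above 92.5% and below 4.53%. Dlk1 was above 13 and below 0 (89.8% and 3.51% of all genes) and Peg10 above 8 and below 2 (69.8% and 8.26%). Magel2 was above 6 and below 8 (41.1% and 36.3%) and Asb4 above 4 and below 7 (33.6% and 27.9%). In the Prader-Willi region of chromosome 7, Snrpn (59982495 to 60140219, GRCm38) was 3.79-fold above Ndn (62346569 to 62350262), and Ndn was 24.1-fold above Magel2 (62377010 to 62381640). Ndn exceeded Magel2 by 4.59 on the log2 scale (SE 0.16, limma adjusted p = 4.83e-06) in 4 of 4 libraries. With Magel2 instead of Ndn as the member compared with all genes, the SE was 0.22 and the limma adjusted p was 0.000501. Of the other genes listed there, the ubiquitin ligase gene Ube3a, which neurons express from the maternal allele, was at 13.8 ± 1.38 FPKM and Atp10a at 2.25 ± 0.386 (SD, n = 4). Mkrn3, a paternally expressed ubiquitin ligase gene, was at 0.708 ± 0.135 FPKM, and Peg12 was at 0.118 ± 0.0808. Ube3a had a ratio of replicate 3 to the others of 0.867, Mkrn3 of 0.978 and Atp10a of 1.07. That of Peg12, at 0.0303 FPKM in replicate 3 and 0.0711, 0.172 and 0.200 FPKM in the others, was 0.205. Snurf shares its transcript with Snrpn and was listed at about 0.02 FPKM in each library, and Gm38393, another overlapping gene on the same strand, averaged 2.55 FPKM. How fragments were divided among these overlapping genes is not given, so the level of Snrpn is uncertain to that extent.

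Nnat (chromosome 2, 157560078 to 157562522, plus strand) lies inside Blcap, and Nap1l5 (chromosome 6, 58905233 to 58907076, minus strand) lies inside Herc3, each on the opposite strand. Because the use of strand in counting is not given, fragments of host and inner gene cannot be fully separated. Nnat was 3.50-fold above Blcap, which lay at 93.9, 91.6, 74.2 and 93.7 FPKM. The difference was 1.81 on the log2 scale (SE 0.25, limma adjusted p = 0.00110), in 4 of 4 libraries. Both were lowest in replicate 3, Nnat at a ratio of 0.498 and Blcap at 0.797. Nap1l5 was 27.8-fold above Herc3, a ubiquitin ligase gene at 24.2, 25.8, 28.3 and 26.4 FPKM, by 4.80 (SE 0.15, limma adjusted p = 1.71e-06) in 4 of 4. Nap1l5 was lowest in replicate 3 and Herc3 highest there.

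On proximal chromosome 6, Peg10 (4747306 to 4760517, plus strand) starts next to Sgce, the paternally expressed gene of epsilon-sarcoglycan. Peg10 differed from Sgce by -0.09 on the log2 scale (SE 0.34, limma adjusted p = 0.826), which did not pass, and was higher in 2 of 4 libraries. Sgce stayed between 25.2 and 27.6 FPKM while Peg10 ranged from 13.2 to 40.3 FPKM. Asb4 (5383386 to 5433022) lies farther along the same region. Its difference from Sgce was -2.34 (SE 0.46, limma adjusted p = 0.0117) and from Casd1, a sialic acid acetyltransferase gene, -1.86 (SE 0.42, limma adjusted p = 0.0179), lower in 4 of 4 for each. Against Calcr, the calcitonin receptor gene of this region, Asb4 was at 0.93 (SE 0.33, limma adjusted p = 0.0637), which did not pass, and was higher in 4 of 4. Calcr was at 3.92, 4.78, 0.764 and 3.06 FPKM, with a ratio of replicate 3 to the others of 0.195. That ratio was 0.313 for Asb4 and 0.426 for Peg10, but 0.786 for Casd1, 0.811 for the neurabin gene Ppp1r9a and 0.953 for Sgce. Differences between these ratios were not tested.

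Peg3 (chromosome 7, 6703892 to 6730431, minus strand) was 3.82-fold above Usp29, which starts beside it on the other strand, and 17.1-fold above Zim1, a maternally expressed zinc finger gene. The difference from Usp29 was 1.93 on the log2 scale (SE 0.08, limma adjusted p = 1.03e-05) and that from Zim1 4.10 (SE 0.13, limma adjusted p = 4.38e-06), each in 4 of 4 libraries. All 3 genes were lowest in replicate 3, with ratios of 0.766 for Peg3, 0.719 for Usp29 and 0.566 for Zim1. Dlk1 (chromosome 12, 109452823 to 109463336) was 60.9-fold above Rtl1, a paternally expressed retrotransposon-derived gene at 0.973 ± 0.315 FPKM (SD, n = 4), and Dio3, a deiodinase gene at the far end of that region, was at 0.220 ± 0.177 FPKM. Impact (chromosome 18, 12955852 to 12992950) was 2.52-fold above its neighbour Osbpl1a, a lipid-binding protein gene. Osbpl1a was highest in replicate 3, at a ratio of 1.36, where Impact was lowest, and Hrh4, a histamine receptor gene beside them, was listed at 0 in all 4 libraries. The noncoding RNAs of these regions were not analysed here.

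**Figure D4:**
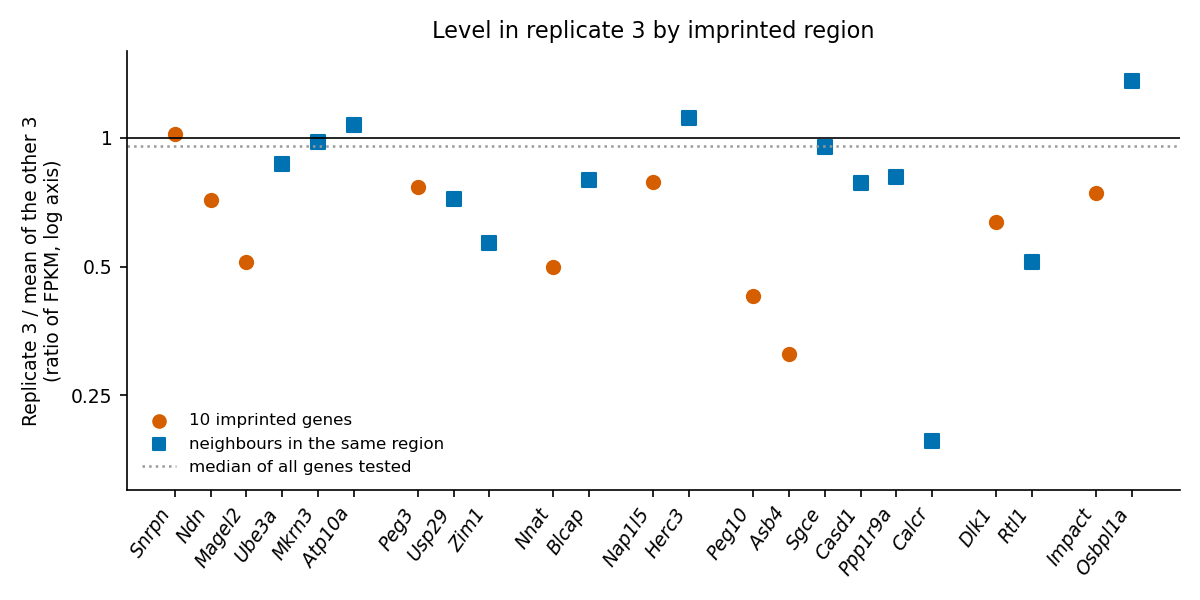
Ratio of FPKM in replicate 3 to the mean of the other 3 libraries (log axis), grouped by imprinted region, for the 10 imprinted genes as circles and neighbouring genes as squares (without Peg12, Dio3, Snurf and Hrh4, the lowest), with the median of all genes tested as a dotted line. Within the group of Peg10 and Asb4 the ratios run from 0.195 for Calcr to 0.953 for Sgce.

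The proteins encoded by several members work in complexes whose other genes were listed. Snrpn was above all 7 genes of the Sm core, the ring of proteins around spliceosomal RNAs, where it was above 99.6% and below 0.301% of all genes. Snrpb, whose product SmN replaces in neurons, was at 51.6, 47.2, 49.5 and 52.6 FPKM, and Snrpn exceeded it by 3.30 on the log2 scale or 9.86-fold (SE 0.05, limma adjusted p = 1.18e-07) in 4 of 4. Snrpd1 was at 42.7 ± 2.05 FPKM and Snrpe at 28.7 ± 3.20 (SD, n = 4). The SD of Snrpn was 0.03 log2 units, where the Sm genes had a median of 0.07. How reads shared by the closely related Snrpn and Snrpb were assigned is not given.

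Of the other 9 MAGE genes and MAGEL2 partners tested, Ndn was above 8 and below 1, while it was above 96.6% and below 1.77% of all genes. The exception was Maged1, a MAGE gene at 292 ± 30.8 FPKM, from which Ndn differed by -1.15 (SE 0.12, limma adjusted p = 0.000287) in 4 of 4. Magel2 was above 0 and below 8 of the 9, where it was above 41.1% and below 36.3% of all genes. Trim27, the ubiquitin ligase that MAGEL2 binds, lay at 7.12 ± 1.09 FPKM and did not differ from Magel2 past the threshold, at -0.40 (SE 0.25, limma adjusted p = 0.206). Vps35, the retromer subunit that recruits the complex to endosomes, lay at 58.9 ± 3.32 FPKM and Magee1 at 70.9 ± 7.10. All 10 genes of this list, Ndn and Magel2 among them, were lowest in replicate 3, as were 35.9% of all genes. Their ratios of replicate 3 to the others lay between 0.512 and 0.930, where the median over all genes tested was 0.960.

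Impact was above all 5 genes tested of a list made for the GCN2 pathway, where it was above 97.3% and below 1.51% of all genes. Gcn1, which was also listed, was not matched and so was not compared. Atf4, the transcription factor of the integrated stress response, was at 76.5 ± 5.40 FPKM, Drg1, a GTPase, at 50.7 ± 3.85 and Rwdd1 at 29.4 ± 0.728 (SD, n = 4). Eif2ak4, which encodes GCN2 itself, was at 3.75 ± 0.314 FPKM, and Impact was 40.2-fold above it. Asb4 was below 3 of the 4 other components of its ligase, Elob at 188 ± 4.25 FPKM, Rnf7 at 88.3 ± 3.26 and Eloc at 48.7 ± 3.20, where it was above 33.6% and below 27.9% of all genes. Cul5 did not pass, with Asb4 at -0.85 to it (SE 0.45, limma adjusted p = 0.163).

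Nap1l5 was above all 5 related histone chaperone genes, where it was above 99.7% and below 0.142% of all genes. Nap1l2, at 84.9 ± 7.66 FPKM, and Nap1l4, at 66.1 ± 3.75, came nearest, and Nap1l1 was at 55.1 ± 3.75 (SD, n = 4). Dlk1 was above all 10 Notch ligands, receptors and targets tested, where it was above 89.8% and below 3.51% of all genes. The highest of these were the target Hes5 at 10.2 ± 1.98 FPKM, the ligand Jag2 at 8.79 ± 0.959 and Dlk2, the closest relative of Dlk1, at 8.09 ± 0.984. Peg10 was above 6 and below 3 of the 9 other genes derived from retroelement gag sequences, where it was above 69.8% and below 8.26% of all genes. The 3 above it were Rtl8c at 324 ± 20.8 FPKM, Rtl8b at 167 ± 15.8 and Rtl8a at 139 ± 20.0, near-identical genes among which fragments may have been divided. Arc, a synaptic gene of the same origin, was at 10.2 ± 0.900 FPKM, and Peg10 exceeded it by 1.26 (SE 0.38, limma adjusted p = 0.0324) in 4 of 4.

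A further list of 59 imprinted genes, of which 48 were matched and 43 passed the filter, was set beside the 10. The list was made by name, and levels do not show whether each of its genes is imprinted in this tissue. The lowest value was in replicate 3 for 29 of the 43, where 35.9% of all genes had it, and replicate 3 was more than 1.2-fold below every other library for 13, where 10.9% of all genes were. The median deviation of replicate 3 was -0.42 log2 units over the 10 members, -0.20 over the 43 others and -0.04 over all genes tested. Among them Plagl1, a zinc finger gene, was at 8.15, 9.68, 4.40 and 7.15 FPKM. Zdbf2, a gene linked to neonatal feeding in mice, was at 5.64, 5.38, 3.25 and 5.09 FPKM. Cdkn1c, a cell cycle inhibitor gene, was at 5.01, 5.23, 3.05 and 4.98 FPKM. In these genes, named after their values were seen, replicate 3 stood below the others, which lay closer together. Of the 4 most abundant of the 43, 3 varied less. Gnas, which encodes the stimulatory G protein alpha subunit, was at 928, 1023, 929 and 991 FPKM, the tetraspanin gene Cd81 at 376, 336, 346 and 349 FPKM and the exchange factor gene Rasgrf1 at 110, 104, 103 and 112 FPKM. The fourth, Ddc, which is needed for dopamine synthesis, was at 88.3, 174, 77.8 and 86.2 FPKM, with an SD of 0.53 log2 units, and was highest in replicate 2 and lowest in replicate 3. The limma variance test called 0 of the 43, as it called 0.0% of all genes. At an unadjusted p under 0.05 in that test there were 7 of the 43, against 5.85% of all genes.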

How the data were processed

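RNA was extracted with TRIzol and made into libraries for Illumina sequencing with a dual-mode mRNA kit, per the labels' protocols. GRCm38 is the assembly per the submitters' processing notes, while aligner, counter, annotation and strandedness are each not given in the sources used here. No unit is named either: the deposited values were taken as FPKM because they are not whole numbers and their totals differ, at 428612 to 442836 per library. Whole reads could not be recovered, since between 10.9% and 25.7% of low values lay within 0.05 of a whole step, so the depth is unknown and no counting intervals were computed. Replicate 3 was identified by its sample title, its column being headed with a letter. Symbols, coordinates and transcript lengths came from GENCODE M21, which matched 22022 of 22036 Ensembl identifiers.

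Genes averaging at least 0.1 FPKM were analysed as log2(FPKM + 0.1), on which differences of weakly expressed genes come out too small. Levels were compared by limma 3.58.1 (R 4.3.3) on within-library differences, a member minus every other gene, with an intercept only, with two-sided p-values adjusted by Benjamini-Hochberg over the 17629 other genes for each member. Prior degrees of freedom were capped at 1.63, the value found for single-gene levels. Each pair of members was read from the fit of its higher member, and SE and p depend on which member is taken. Except for Ndn and Magel2, values from the fit of the lower member are not given here. Spread was tested by an upper-tail F test of each variance against a limma prior that was trended and robust, with 4.28 degrees of freedom, adjusted over 17630 genes. Both tests were checked on simulated data. Tables and plots were made with matplotlib 3.10.9, pandas 2.3.3 and numpy 2.4.6 under Python 3.11.15.

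The members, lists and tests were chosen with earlier results of these data known. Named were all members, listed neighbours in imprinted regions, the most abundant genes of each list and the genes nearest in profile over the 4 libraries. Trim27, Vps35, Eif2ak4, Cul5, Arc, Kiss1, the individual parasubthalamic markers and the lateral hypothalamic markers other than Pmch fall outside this rule. They were picked with their values known, as were those the text marks so. Alternatives were the pseudocount, the filter, the scaling, the priors, transcript length, the number of like-level genes and leaving out each replicate.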

Additional observations from a re-analysis of the deposited data

Results flagged for a closer look

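Peg3 in replicate 3, at 53.7 FPKM, lay far below the other 3 libraries, which were between 68.5 and 71.3 FPKM. Its gap to the nearest of them was 0.846 of the whole range, above the 95% critical value of Dixon's test for 4 samples. About 5% of groups exceed that value by chance, and 10 genes were examined.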

How the results depend on the processing

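No paired analysis was possible because all libraries belong to 1 group. No member was called for spread under any of the 11 alternatives run. Of all genes 0 were called in the analysis reported, 11 after scaling to the same total, 4 without replicate 3 and 8 without replicate 4. The members at an unadjusted p under 0.05, 8 in the analysis reported, were 1 with a prior neither trended nor robust and between 5 and 8 when 1 replicate was left out. The median SD percentile of the members, 96.5, was between 89.75 and 97.25 when 1 replicate was left out, and their median level percentile, 95.9, was 94.4 among genes averaging at least 1 FPKM. On values multiplied by transcript length the differences of Nnat from Impact (-0.38) and of Ndn from Peg3 (-0.24) changed sign, and that of Peg3 from Dlk1 (0.96) passed, since these genes differ in annotated length. When 1 replicate was left out, Peg3 minus Dlk1 was between -0.0019 and 0.20 and Magel2 minus Asb4 between -0.0816 and 0.27. The number of pairs called, 42 of 45, ran from 39 on values multiplied by transcript length to 43 with a pseudocount of 0.01. The unknown depth limits what can be said of the precision of Magel2 and Asb4, the lowest members.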

Other observations

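Of the 43 imprinted genes tested on the further list, 1 had its lowest value in replicate 2, against 16.8% of all genes. In replicate 1 there were 7 and in replicate 4 there were 6, and the shares of all genes for these are not given here. Of those lowest in replicate 4, 2 are named after their values were seen. Igf2, which encodes a growth factor made by meningeal and vascular cells in the adult brain, was at 35.5 FPKM in replicate 1 and at 21.3, 20.2 and 19.4 FPKM in replicates 2 to 4. Dcn, the gene of the matrix proteoglycan decorin, was at 26.6, 25.4, 14.3 and 14.1 FPKM in replicates 1 to 4. Both were highest in replicate 1 and lowest in replicate 4.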
